A study of Mus musculus with 11 samples.

Results

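The 8 genes described here belong to the programme of naive T cells and were measured in whole mouse lung: the transcription factors Lef1, Tcf7, Satb1 and Bach2, the interleukin-7 receptor chain Il7r, the chemokine receptor Ccr7, the lipid receptor S1pr1 and the transcription factor Klf2. They were chosen by name for their roles in homing and quiescence, with earlier results of these data known. Counts of the 8 beside shares of all genes therefore describe the list and do not test it. All 8 were among the 23255 genes measured. Lungs came from C57BL/6 mice in 3 groups: 5 libraries from mice given osimertinib after naphthalene, 3 from mice given naphthalene without osimertinib, and 3 from untreated control mice. Osimertinib is an inhibitor of the EGF receptor kinase, and naphthalene injures the club cells of the airway lining; the osimertinib mice had received naphthalene too. The study concerned the part of naive CD4+ T cells in the lung inflammation that osimertinib can cause. The labels used here gave no dose, time, age, sex or batch, and nothing in them says whether replicates are separate animals. The p-values therefore set differences between group means against the spread among these samples, and that spread may be technical.

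Naive T cells circulate between blood and lymphoid tissue without dividing. CCR7 draws them into lymph nodes along the ligands CCL19 and CCL21, S1PR1 lets them leave again along a gradient of sphingosine-1-phosphate, and interleukin-7 keeps them alive through IL7R. LEF1, TCF1 (the product of Tcf7), SATB1 and BACH2 hold the naive programme and restrain effector genes, while KLF2 keeps the cells quiescent and drives S1pr1. Naive T cells are few in the lung, and several of the genes have other sources there: endothelium is rich in KLF2 and S1PR1, and B cells use CCR7, BACH2, KLF2 and S1PR1.

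The libraries were not alike in depth, which bears on all values below. The gene ENSMUSG00000119584, without a name in the annotation used, took 43.9 to 60.3% of the reads in 4 libraries, naphthalene 1 to 3 and osimertinib 2, and 0.0165 to 0.0337% in the other 7. Outside that gene, those 4 libraries held 2018541 to 2965328 gene reads, against 8418669 to 13006929 in the others, so a member rested on 27 to 456 reads in those 4 and on 56 to 2938 elsewhere. A pair of genes listed with identical values in every library, ENSMUSG00000118841 and ENSMUSG00000118866, reached 16.7% of the reads each in osimertinib 3. Osimertinib 3 stood apart from every other library on the first principal component, at 72.7 against 26.2 for the next, naphthalene 3. It was the lowest osimertinib library for 6 of the 8 genes, Klf2 and Ccr7 excepted.

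Values are the deposited normalised signal, a CPM over library sizes adjusted by TMM factors, and are called CPM here. Per kilobase of transcript, S1pr1 and Klf2 stood far above the other 6 in every group. Klf2 averaged 68.0 ± 32.5 CPM per kilobase in osimertinib lungs, 39.4 ± 7.86 in naphthalene lungs and 66.7 ± 15.5 in control lungs (SD, n = 5, 3 and 3). S1pr1 averaged 46.5 ± 10.9 CPM per kilobase in osimertinib lungs, 43.9 ± 7.94 in naphthalene lungs and 46.9 ± 6.07 in control lungs. The next level, Tcf7, was 6.73 ± 1.12 CPM per kilobase in osimertinib lungs, 9.25 ± 1.48 in naphthalene lungs and 10.3 ± 2.23 in control lungs. Satb1 and Ccr7 followed, at 4.13 ± 1.52 and 4.13 ± 0.676 CPM per kilobase in osimertinib lungs. The ranges of Tcf7 and Satb1 overlapped in osimertinib and in control lungs, although Tcf7 was above Satb1 within each library of these groups. Those of Satb1 and Ccr7 overlapped in osimertinib and in naphthalene lungs. Il7r, Bach2 and Lef1 were lowest, between 2.31 and 4.04 CPM per kilobase as group means, and their order changed from group to group. In each group the ranges of Klf2 and S1pr1 overlapped, so neither can be put above the other.

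**Figure D1:**
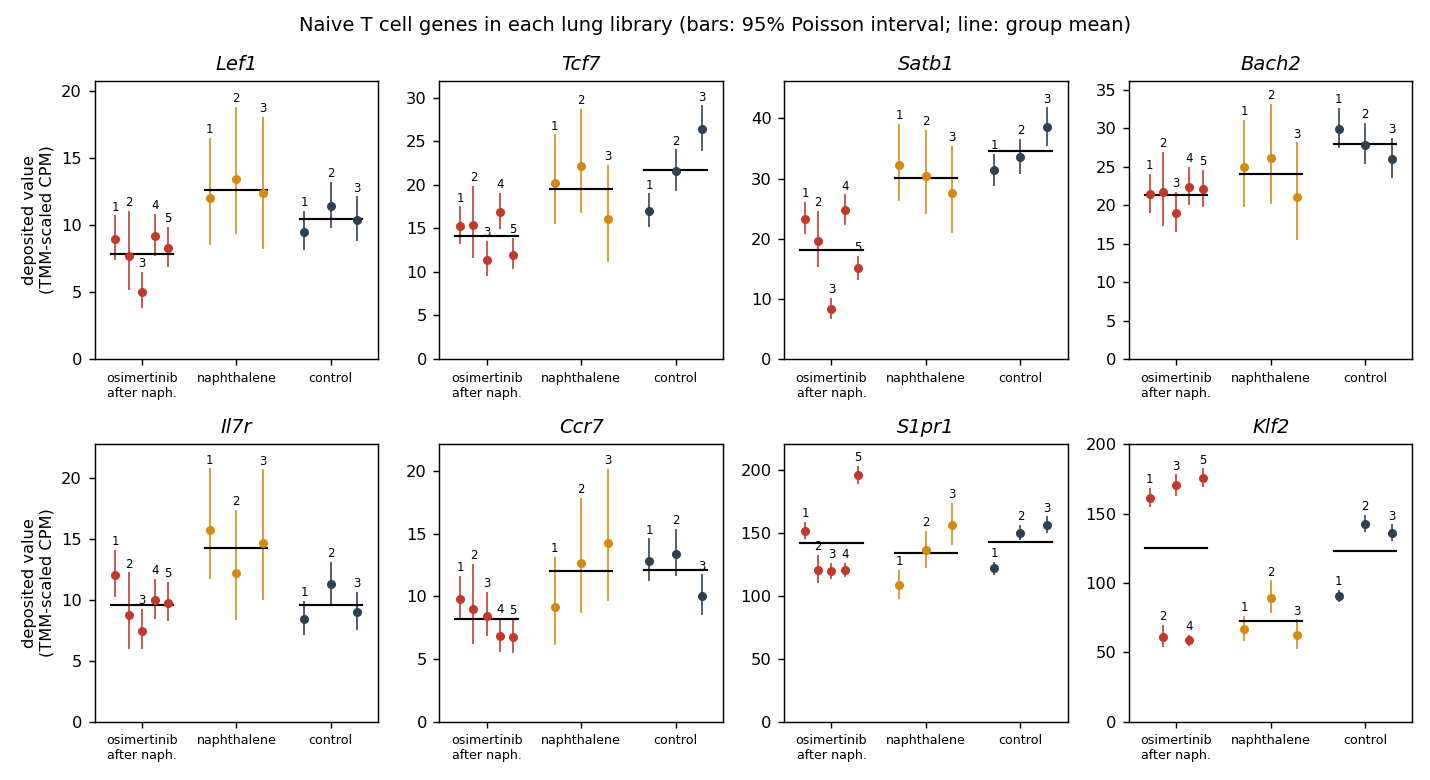
Deposited value (CPM after normalisation, linear axis from 0) of each of the 8 genes in each library, with osimertinib, naphthalene and control lungs from left to right; numbers are replicates, bars are 95% Poisson intervals for counting error only and lines are group means. Satb1 lay between 8.29 and 24.7 in osimertinib lungs, below the lowest naphthalene library at 27.5 and the lowest control library at 31.4, while Klf2 divided the osimertinib lungs into 2 libraries near 60 and 3 above 160.

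The genes lie on mouse chromosomes 3 (Lef1 and S1pr1), 11 (Tcf7 and Ccr7), 17 (Satb1), 4 (Bach2), 15 (Il7r) and 8 (Klf2). Lef1 (ENSMUSG00000027985), an HMG-box partner of beta-catenin that holds T cells in a naive state, read 8.93, 7.68, 4.99, 9.18 and 8.26 CPM in osimertinib lungs 1 to 5, against 12, 13.4 and 12.4 CPM in naphthalene lungs and 9.49, 11.4 and 10.4 CPM in control lungs. Every osimertinib library lay below every library of the other groups, narrowly for osimertinib 4 at 9.18 CPM and control 1 at 9.49 CPM. Every naphthalene library lay above every control library. The naphthalene values rested on only 27 to 38 reads each, and their 95% Poisson intervals, which cover counting error only, reached from 8.17 to 18.8 CPM and so took in the control values. The interval of naphthalene 3, from 8.17 CPM, also took in osimertinib 1, 4 and 5. That of naphthalene 2 began at 9.31 CPM, above every osimertinib value. The difference between osimertinib and naphthalene lungs was -0.65 ± 0.18 (SE) on the log2(value + 1) scale, a scale that understates the change of low genes. It did not pass limma's test over all genes (adjusted p = 0.237).

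Tcf7 (ENSMUSG00000000782), which encodes the related factor TCF1, read 15.3, 15.4, 11.4, 16.9 and 12 CPM in osimertinib lungs, against 20.2, 22.2 and 16.1 CPM in naphthalene lungs and 17, 21.6 and 26.4 CPM in control lungs. All osimertinib libraries lay below all control libraries, narrowly for osimertinib 4 and control 1, and osimertinib 4 exceeded naphthalene 3. The log2 difference between osimertinib and naphthalene lungs was -0.43 ± 0.17 (limma, adjusted p = 0.409).

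Satb1 (ENSMUSG00000023927), a chromatin organiser of the T cell lineage, showed the widest spread of the 4 lymphoid transcription factors among the osimertinib lungs. It read 23.4, 19.6, 8.29, 24.7 and 15.1 CPM there, against 32.2, 30.5 and 27.5 CPM in naphthalene lungs and 31.4, 33.6 and 38.6 CPM in control lungs. Osimertinib lungs were below both other groups without overlap, and osimertinib 3 was far the lowest library. Between osimertinib and naphthalene lungs the log2 difference was -0.78 ± 0.27 (limma, adjusted p = 0.341), and it was -0.54 without osimertinib 3.

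Bach2 (ENSMUSG00000040270), a repressor that restrains effector genes in T cells and plasma cell genes in B cells, had the narrowest spread among the osimertinib lungs. Osimertinib lungs held 21.4, 21.7, 19.0, 22.4 and 22.1 CPM, against 24.9, 26.1 and 21.1 CPM in naphthalene lungs and 29.9, 27.9 and 26.0 CPM in control lungs. The osimertinib values were all below the control values and overlapped those of naphthalene lungs through naphthalene 3. The log2 difference was -0.16 ± 0.10 between osimertinib and naphthalene lungs and -0.37 ± 0.10 between osimertinib and control lungs, and neither passed (limma, adjusted p = 0.633 and 0.613).

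Il7r (ENSMUSG00000003882), the alpha chain that binds interleukin-7 on naive and memory T cells and on innate lymphoid cells, read 12.1, 8.74, 7.48, 9.98 and 9.79 CPM in osimertinib lungs, against 15.8, 12.3 and 14.7 CPM in naphthalene lungs and 8.47, 11.3 and 9.02 CPM in control lungs. Naphthalene lungs were above both other groups without overlap, by the narrow margin of 12.3 CPM in naphthalene 2 over 12.1 CPM in osimertinib 1. Osimertinib and control lungs had the same mean, 9.61 ± 1.69 and 9.61 ± 1.52 CPM, with a log2 difference whose 95% interval ran from -0.36 to 0.35. The log2 difference was -0.53 ± 0.16 between osimertinib and naphthalene lungs (limma, adjusted p = 0.290) and 0.53 ± 0.18 between naphthalene and control lungs (limma, adjusted p = 0.578), on 31 to 50 reads per naphthalene library.

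Ccr7 (ENSMUSG00000037944), the lymph node homing receptor, read 9.77, 9, 8.46, 6.85 and 6.73 CPM in osimertinib lungs, against 9.16, 12.7 and 14.2 CPM in naphthalene lungs and 12.8, 13.4 and 10.03 CPM in control lungs. Osimertinib lungs lay below control lungs without overlap, by the narrow margin of 9.77 CPM in osimertinib 1 under 10.03 CPM in control 3. Counting error alone spans that margin, and osimertinib 1 exceeded naphthalene 1. The log2 difference was -0.50 ± 0.18 between osimertinib and naphthalene lungs (limma, adjusted p = 0.350).

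S1pr1 (ENSMUSG00000045092), the egress receptor, had the most even group means of the 8. Its values were 152, 121, 120, 120 and 196 CPM in osimertinib lungs, against 108, 136 and 156 CPM in naphthalene lungs and 122, 150 and 157 CPM in control lungs. The 3 groups overlapped throughout, and osimertinib 5 was the highest library. The log2 difference between osimertinib and naphthalene lungs was 0.07 ± 0.18, with a 95% interval from -0.31 to 0.46 (limma, adjusted p = 0.914), and it was -0.13 for osimertinib 2 alone, the single osimertinib library with the high read share of the naphthalene lungs.

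Klf2 (ENSMUSG00000055148), the factor that maintains quiescence in T cells and responds to blood flow in endothelium, split the osimertinib lungs. It read 161, 61.2, 171, 58.7 and 176 CPM in osimertinib lungs, against 66.6, 89.4 and 62.4 CPM in naphthalene lungs and 90.4, 143 and 136 CPM in control lungs. Osimertinib 1, 3 and 5 exceeded every other library, while osimertinib 2 and 4 were the lowest of all 11. Naphthalene lungs were below control lungs without overlap, although naphthalene 2 and control 1 differed by about 1 CPM. The log2 difference between osimertinib and naphthalene lungs was 0.63 ± 0.37 (limma, adjusted p = 0.600), and it turned to -0.23 for osimertinib 2 alone.

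Klf2 and Il7r departed in opposite directions between naphthalene and control lungs, and the 250 bases before their transcription starts are shown so that their known types of regulatory site can be read beside these values. RefSeq promoter sequences (GRCm38.p6) were matched for 6 of the 8 genes, with 14 starts in all. The capitals mark a match, on either strand, to the motif of MEF2 factors (CTA and TAG with any 4 bases between them), which activate Klf2 in endothelium, or to CTTCCTG of ETS factors, which drive Il7r in lymphocytes. The stretches are chr8:72318812-72319061 on the plus strand for Klf2 and chr15:9529877-9530126 on the minus strand for Il7r.
Klf2: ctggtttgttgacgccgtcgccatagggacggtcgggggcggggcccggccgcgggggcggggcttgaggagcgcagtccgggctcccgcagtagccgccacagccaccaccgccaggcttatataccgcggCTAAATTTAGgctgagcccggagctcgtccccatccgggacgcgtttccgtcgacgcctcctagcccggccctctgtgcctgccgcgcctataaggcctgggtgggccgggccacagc
Il7r: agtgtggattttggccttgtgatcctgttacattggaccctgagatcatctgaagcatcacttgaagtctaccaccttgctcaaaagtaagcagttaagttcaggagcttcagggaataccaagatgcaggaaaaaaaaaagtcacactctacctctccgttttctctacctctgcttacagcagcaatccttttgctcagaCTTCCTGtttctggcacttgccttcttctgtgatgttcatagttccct
The MEF2 match in Klf2 was CTAAATTTAG and began 118 bases before the start, and 3.22% of 32536 promoters of the same length held that motif. The ETS match in Il7r began 48 bases before the start, a motif found in 10.8% of those promoters. Of the 14 member starts, 1 held the MEF2 motif, 3 the ETS motif (Lef1, Satb1 and Il7r) and 1 the CACCC box CCACACCC of KLF factors (Tcf7), which 3.20% of promoters held. None held the TCF/LEF motif CTTTGAA or the FOXO motif TGTTTAC, found in 4.47 and 3.17% of promoters. These are matches of letters in these windows and were not tested for binding.

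Set side by side for what osimertinib added to the injury, 6 of the 8 genes were lower in osimertinib than in naphthalene lungs on the deposited scale and Klf2 and S1pr1 were higher. The median log2 difference of the 8 was -0.47, against 0.06 for all 16225 genes tested, of which 39.5% were below 0. By limma 0 of the 8 genes passed an adjusted p of 0.05, as did 0% of all genes. By edgeR 0 of the 8 passed, again as 0% of all genes, and by DESeq2 0 passed, where 0.0645% of all genes were called lower and 0.0709% higher. At an unadjusted p under 0.05, limma had 5 of the 8 lower (Lef1, Il7r, Satb1, Ccr7 and Tcf7) and 0 higher, where 3.22% of all genes were lower and 7.08% higher. With the replicate number as a block, this held for 3 of the 8 (Lef1, Satb1 and Il7r) and not for Ccr7 and Tcf7, where 3.24% of all genes were lower. Osimertinib 4 and 5 have no partner of the same number, so that fit compared only osimertinib 1 to 3 with naphthalene 1 to 3. Groups did not overlap for 3 of the 8, all lower (Lef1, Satb1 and Il7r), where 2.12% of all genes were lower and 3.82% higher without overlap. Since the 8 were chosen with earlier results of these data known, these counts are no independent support.

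Within the libraries of high read share, osimertinib 2 could be set against naphthalene 1 to 3. Its log2 differences were -0.65 for Lef1, -0.64 for Il7r, -0.59 for Satb1, -0.36 for Ccr7, -0.31 for Tcf7 and -0.14 for Bach2. These 6 kept the sign of the full comparison, with adjusted p between 0.528 and 0.888 in a limma fit in which 1 library stood for the osimertinib group and was assumed to vary like the others. Without osimertinib 2 and osimertinib 3, the same 6 genes lay between -0.56 and -0.12.

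**Figure D2:**
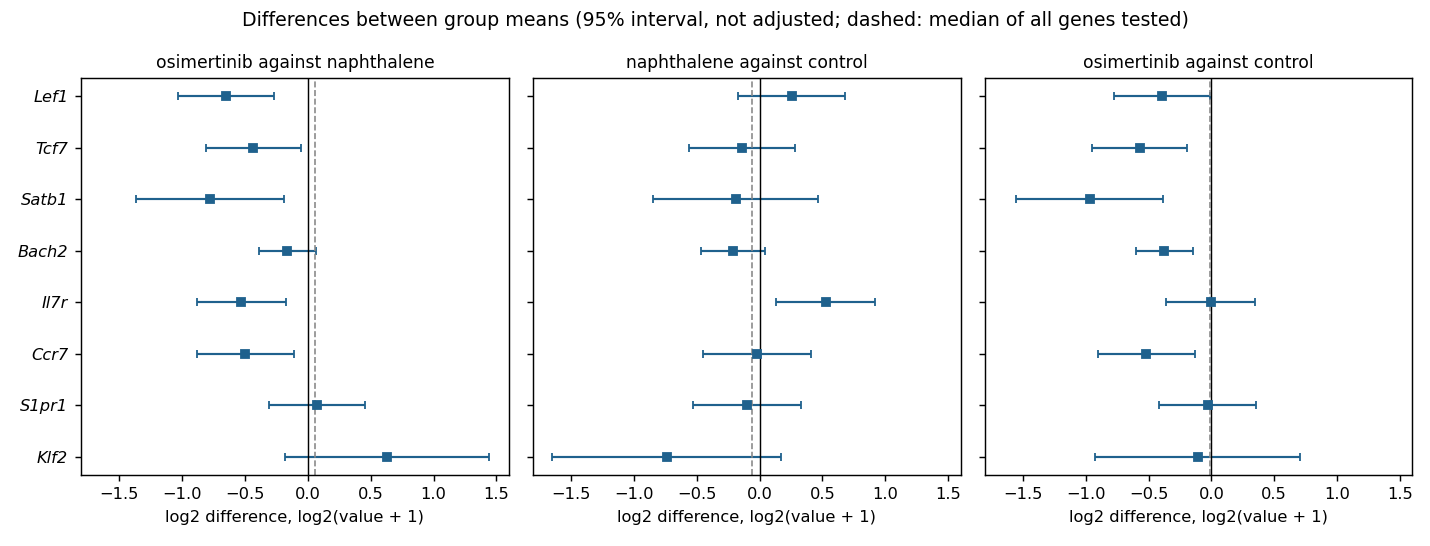
Difference in mean log2(value + 1) for each gene (points, with 95% intervals from limma, not adjusted for the number of genes) in osimertinib against naphthalene, naphthalene against control and osimertinib against control lungs; the dashed line is the median of all genes tested. Satb1 lay farthest below 0 in both osimertinib panels, at -0.78 and -0.97, and Il7r was the highest of the 8 in naphthalene against control at 0.53.

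For the injury without the drug, Il7r and Lef1 were higher in naphthalene than in control lungs and Klf2 was lower, without overlap of the groups. The other 5 overlapped. Of the 8, 6 were below 0, against 62.0% of all genes, and the median log2 difference of the 8 was -0.12, against -0.06 for all genes. By limma 0 of the 8 passed the adjusted threshold, as did 0% of all genes by limma and by edgeR. DESeq2 called 0 as well, with 0.0618% of all genes called lower and 0.165% higher, and gave no adjusted p for 6 of the 8. Il7r alone of the 8 had an unadjusted p under 0.05, so 1 was higher and 0 lower, where 1.73% of all genes were higher and 5.74% lower.

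Non-overlap was common in this comparison, with 4.94% of all genes higher and 11.2% lower. The log2 differences were 0.26 ± 0.20 for Lef1 and -0.74 ± 0.42 for Klf2 (limma, adjusted p = 0.839 and 0.746). For Ccr7, Tcf7, Satb1, S1pr1 and Bach2 they lay between -0.21 and -0.02. All 3 naphthalene libraries and no control library had the high read share, so the share and the group cannot be told apart inside a set of like libraries. A term for the high share, which rests on osimertinib 2, gave 0.34 for Klf2 and 0.15 for S1pr1, turning both. At equal totals the median of all genes moved to -1.45 and all 8 were below 0, with Il7r at -0.90 and Lef1 at -1.16 above that median. All 8 passed the adjusted threshold at that scale, as did 95.3% of all genes.

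Against untreated lungs, the osimertinib lungs were lower for all 8 genes as means on the log scale, against 52.0% of all genes, although Il7r, S1pr1 and Klf2 lay within 0.11 of 0 and Il7r turned to 0.012 after median-ratio rescaling. Satb1 differed most, at -0.97 ± 0.27, a fold of 0.511 on the same scale. Then came Tcf7 at -0.57 ± 0.17, Ccr7 at -0.52 ± 0.18, Lef1 at -0.40 ± 0.18 and Bach2 at -0.37 ± 0.10. Those 5 genes had no overlap between the groups, where 3.43% of all genes were lower and 2.91% higher without overlap. The same 5 had an unadjusted p under 0.05 by limma, where 2.5% of all genes were lower and 2.31% higher.

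No member passed the adjusted threshold, as 0 of the 8 were called by limma, edgeR or DESeq2, while limma and edgeR each called 0.00616% of all genes and DESeq2 called 0.204% lower and 0.26% higher. The lowest adjusted p was 0.613 by limma, for Satb1 and Bach2, and 0.138 by DESeq2, for Bach2. Limma with array weights, which gave libraries that stand apart less weight, called both, with log2 differences of -0.71 for Satb1 and -0.32 for Bach2 (adjusted p = 0.0343 and 0.0447), where the same fit called 0.918% of all genes. Equal totals called 1 of the 8, Satb1 at -1.33 (limma, adjusted p = 0.0214), where 0.58% of all genes were called. Among the 7 libraries without the high read share the differences were -1.02 for Satb1, -0.60 for Tcf7, -0.55 for Ccr7, -0.40 for Lef1 and -0.38 for Bach2. Any 2 of the 3 comparisons share a group, so their values for a gene are not independent.

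The sign of several differences between osimertinib and naphthalene lungs depended on the scale, in libraries where a single gene took up to 60.3% of the reads. Scaled to equal totals, the median of all genes moved to 1.10, and all 8 genes were above 0, with Klf2 at 1.80, S1pr1 at 1.25 and Bach2 at 0.96 called higher (limma, adjusted p = 2.18e-05, 0.00113 and 0.00623). At that scale 87.1% of all genes were called, so that 3 of 8 is a smaller share than that of all genes. Equal totals without the genes over 10% of any library put that median at 0.32. Relative to the median gene, Lef1, Tcf7, Satb1, Bach2, Il7r and Ccr7 were below it and Klf2 and S1pr1 above it under each of the 4 scalings tried. Each scaling multiplied a whole library by a single factor, so all genes moved nearly together and these positions were close to fixed in advance. Satb1 lay 0.84, 0.84, 0.74 and 0.81 below the median gene as deposited, after median-ratio rescaling, at equal totals and at equal totals without the dominant genes.

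**Figure D3:**
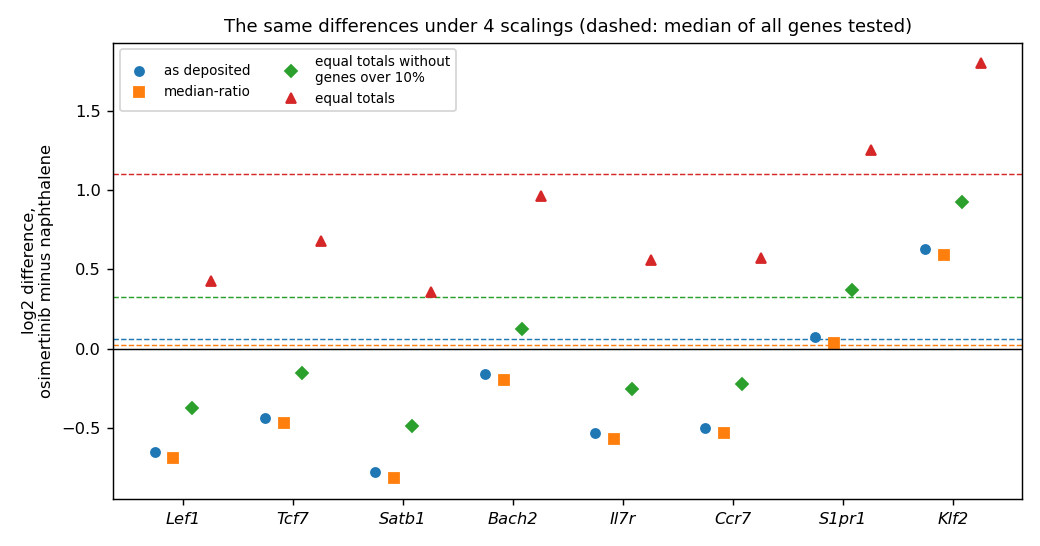
Log2 difference between osimertinib and naphthalene lungs for each gene under 4 scalings, with the median of all genes tested under each as a dashed line in the same colour. The points of a gene move up together with the dashed lines, from a median of 0.06 as deposited to 1.10 at equal totals, and the 6 genes on the left stay below the line of their own scaling. Each scaling multiplies a whole library by a single factor, so this joint shift is close to fixed in advance.

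Most other markers of naive T cells were lower in value, as the lymphoid members were, without passing. Of 9 markers tested, 6 were below 0 and 3 above between osimertinib and naphthalene lungs, with a median of -0.43, and 0 passed by limma over all genes. The T cell kinase gene Txk and the co-receptor gene Cd28 had log2 differences of -0.74 and -0.61. These were picked for a small unadjusted p in this same comparison.

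Genes that act with the members lay closer to 0. Among 12 quiescence regulators, 7 were below 0 and 5 above, with a median of -0.05. Foxo1, which drives Klf2 and Il7r in T cells, averaged 55.0 ± 11.5 CPM in osimertinib lungs and 62.7 ± 9.38 CPM in naphthalene lungs. Of 10 partners of TCF/LEF factors 7 were above 0, with a median of 0.16, and the co-repressor Tle1 averaged 45.9 ± 7.73 CPM in osimertinib lungs and 34.5 ± 3.03 CPM in naphthalene lungs, without overlap. In the 13 genes of the interleukin-7 axis 8 were above 0, and Il7 itself averaged 2.54 ± 0.529 CPM in osimertinib lungs and 1.65 ± 1.04 CPM in naphthalene lungs.

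The sphingosine-1-phosphate axis had 6 of its 11 genes below 0 and a median of -0.08. Cd69, whose product pulls S1PR1 off the cell surface, averaged 4.76 ± 1.00 CPM in osimertinib lungs and 7.05 ± 1.60 CPM in naphthalene lungs. Of 14 homing ligands and adhesion receptors 9 were above 0. Ccl21a, a ligand of CCR7 with near-identical copies that make its value uncertain, read 40.8, 46.3, 114, 40.9 and 36.0 CPM in osimertinib lungs, against 28.1, 27.3 and 35.3 CPM in naphthalene lungs. These groups did not overlap and osimertinib 3 stood far above the rest. Ccl19 averaged 2.23 ± 0.449 CPM in osimertinib lungs and 1.66 ± 1.16 CPM in naphthalene lungs. Of 10 activation and effector genes 5 were below 0 and 5 above. Cd44, which marks antigen-experienced cells among T cells, averaged 159 ± 11.3 CPM in osimertinib lungs and 138 ± 15.8 CPM in naphthalene lungs. In every library it exceeded the sum of 14 pan T cell markers given below, which reached at most 78.9 CPM. Which cells gave the Cd44 signal was not tested. In none of these lists did a gene pass limma's adjusted threshold in any of the 3 comparisons.

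In bulk lung, fewer T cells and less RNA per T cell cannot be told apart. The labelled tissue held its defining markers, with 9 lung epithelial markers summing to 17340 to 28850 CPM in osimertinib lungs, 18317 to 26059 CPM in naphthalene lungs and 21729 to 25062 CPM in control lungs. The 14 pan T cell markers, such as the CD3 chains, summed to 42.8 to 68.8 CPM in osimertinib lungs, 54.0 to 78.9 CPM in naphthalene lungs and 70.5 to 75.3 CPM in control lungs, and no marker of the list was at 0 throughout a group. Osimertinib lungs lay below control lungs in that sum without overlap and overlapped naphthalene lungs. Cd3e averaged 3.52 ± 1.04 CPM in osimertinib lungs and 5.73 ± 0.218 CPM in naphthalene lungs, while Cd8a averaged 2.20 ± 0.555 CPM in osimertinib lungs and 3.82 ± 0.943 CPM in naphthalene lungs. Of the 14, 10 were below 0 and 4 above between osimertinib and naphthalene lungs, with a median log2 difference of -0.15, Cd3e alone did not overlap, and 0 passed limma over all genes. Between osimertinib and control lungs 14 of 14 were below 0, with a median of -0.34, 3 did not overlap, and 0 passed. Cd4 averaged 2.45 ± 0.722 CPM in osimertinib lungs and 2.59 ± 1.89 CPM in naphthalene lungs, and overlapped.

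Markers of other cells differed beside the members. The 12 B cell markers summed to 56.6 to 142 CPM in osimertinib lungs, 207 to 292 CPM in naphthalene lungs and 181 to 289 CPM in control lungs, and all 12 were lower in osimertinib lungs, with median log2 differences of -1.07 against naphthalene and -1.12 against control. Limma called 0 of them over all genes, while DESeq2 called 4 against naphthalene and 7 against control lungs. The 9 dendritic cell markers tested had a median of 0.57 between osimertinib and naphthalene lungs, and the list of 10 summed to 139 to 176 CPM in osimertinib lungs, 113 to 122 CPM in naphthalene lungs and 118 to 135 CPM in control lungs. The 13 endothelial markers summed to 2392 to 2709 CPM in osimertinib lungs, 2197 to 2469 CPM in naphthalene lungs and 2638 to 2821 CPM in control lungs. Of the 13, 12 were below 0 between naphthalene and control lungs, where Klf2 was lower too. The 8 NK cell markers summed to 14.3 to 39.9 CPM in osimertinib lungs, 26.9 to 41.8 CPM in naphthalene lungs and 35.4 to 42.6 CPM in control lungs. None of the B cell, dendritic cell, endothelial or NK cell markers was at 0 throughout a group, and their part in the members' values was not tested.

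**Figure D4:**
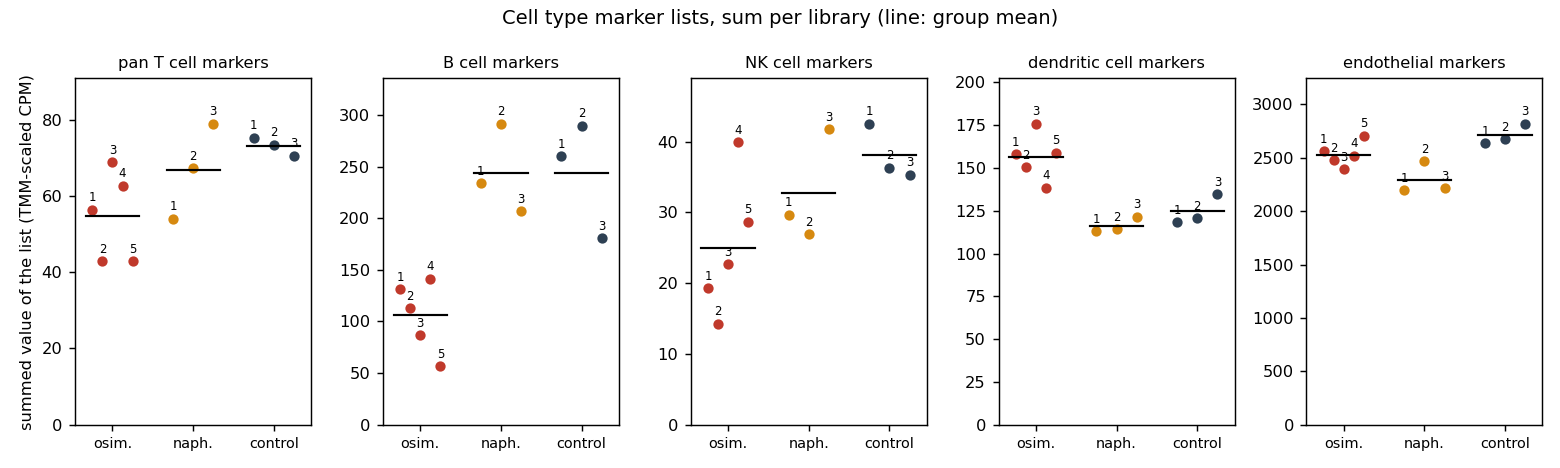
Summed value (CPM, linear axis from 0) of 5 marker lists in each library, with osimertinib, naphthalene and control lungs from left to right; numbers are replicates and lines are group means. B cell markers were at most 142 in osimertinib lungs and at least 181 elsewhere, and pan T cell markers were lower in osimertinib than in control lungs but overlapped naphthalene lungs.

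Divided by the summed pan T cell markers of the same library, all 8 genes in osimertinib lungs overlapped naphthalene lungs and control lungs. Before division, 3 of the 8 had not overlapped naphthalene lungs and 5 had not overlapped control lungs. Ratios of means between osimertinib and naphthalene lungs still ran from 0.746 for Satb1 and 0.776 for Lef1 to 2.11 for Klf2. The divisor rested on as few as 162 reads in osimertinib lungs and 170 reads in naphthalene lungs. The Lef1 ratio ranged from 0.0725 to 0.193 in osimertinib lungs, 0.157 to 0.222 in naphthalene lungs and 0.126 to 0.155 in control lungs. The Satb1 ratio ranged from 0.120 to 0.457 in osimertinib lungs, with osimertinib 3 lowest, 0.349 to 0.596 in naphthalene lungs and 0.417 to 0.547 in control lungs. Between naphthalene and control lungs, Lef1 and Il7r were higher per pan T cell marker without overlap, with ratios of means of 1.35 and 1.67, and the other 6 overlapped. Divided instead by the summed B cell markers, which were lower in osimertinib lungs, Tcf7, Klf2, S1pr1 and Bach2 were higher in osimertinib than in naphthalene lungs without overlap, with ratios of means of 1.79, 4.87, 2.81 and 2.26. On that divisor Lef1, Il7r and Bach2 were higher in osimertinib than in control lungs without overlap, at 1.82, 2.46 and 1.90, and Klf2 was lower in naphthalene than in control lungs without overlap, at 0.560. The other genes overlapped in each comparison. For either divisor the share of all genes without overlap was not computed.

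Divided by summed endothelial markers, Klf2 and S1pr1 overlapped in all 3 comparisons. The Klf2 ratio ranged from 0.0233 to 0.0713 in osimertinib lungs, 0.0282 to 0.0362 in naphthalene lungs and 0.0343 to 0.0534 in control lungs. Lef1, Tcf7, Satb1, Bach2, Il7r and Ccr7 were each lower per endothelial marker in osimertinib than in naphthalene lungs without overlap. Of these, Tcf7, Bach2 and Ccr7 had overlapped before division. The divisor itself was higher in osimertinib lungs, with a mean of 2531 CPM against 2293 CPM in naphthalene lungs. The share of all genes without overlap on this divisor was not computed.

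**Figure D5:**
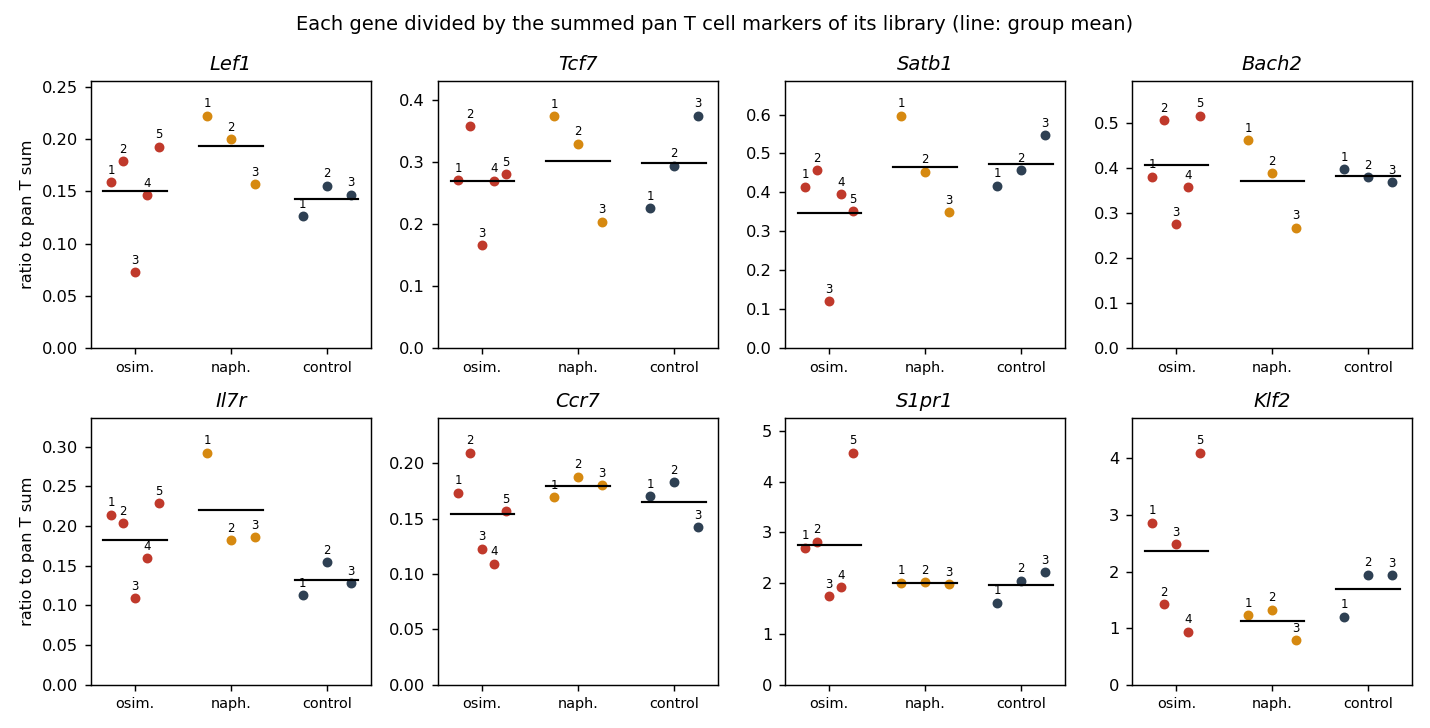
Ratio of each gene to the summed pan T cell markers of its library (no unit, linear axis from 0), with osimertinib, naphthalene and control lungs from left to right; numbers are replicates and lines are group means. The osimertinib points overlap both other groups for every gene, and the naphthalene points of Lef1 (0.157 to 0.222) and Il7r (0.182 to 0.292) lie above the control points.

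Across the 11 libraries, which share the 3 treatments and differ in depth, Lef1, Tcf7 and Satb1 varied together and Klf2 did not follow them. Pearson's r of log2(value + 1) was 0.89 for Tcf7 with Satb1, 0.87 for Lef1 with Satb1 and 0.75 for Lef1 with Tcf7, with Spearman's rho of 0.93, 0.74 and 0.76. As deviations from the group means the same pairs had r of 0.73, 0.88 and 0.57. Osimertinib 3 was the lowest of the 11 libraries for Lef1, Tcf7 and Satb1, and r without it was not computed. Bach2 had r of 0.60 with Lef1, 0.72 with Tcf7 and 0.77 with Satb1, and 0.52, 0.29 and 0.49 as deviations from the group means. Il7r went most with Lef1, at r = 0.76. Ccr7 had r of 0.57 with Lef1, 0.48 with Tcf7 and 0.54 with Satb1, but -0.049, -0.29 and -0.13 as deviations from the group means. Klf2 had r between -0.40 and -0.22 with Lef1, Tcf7 and Satb1 and 0.55 with S1pr1.

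Among 11694 other genes that averaged 5 CPM or more, those most like each member were listed by r over the 11 libraries. Nearest to Ccr7 were the lymphotoxin gene Ltb (0.92) and the B cell gene Fcrla (0.89). Satb1 was nearest to Akna (0.98) and Notch2 (0.96), and Tcf7 to Akna (0.92) and Kif24 (0.90). Klf2 was nearest to the immediate early phosphatase gene Dusp1 (0.89) and to Syde1 (0.88), and S1pr1 to Cdc42ep4 and Rapgef3 (both 0.92). Lef1 was nearest to Tsr2 and Vma21 (both 0.94), Il7r to Cipc (0.88) and Hacd4 (0.86), and Bach2 to Reep6 (0.93) and Arhgef19 (0.92). Dusp1 averaged 155 CPM in osimertinib lungs, 84.9 CPM in naphthalene lungs and 164 CPM in control lungs, so that naphthalene lungs had the lowest mean, as they had for Klf2.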

How the data were processed

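Lung total RNA was depleted of ribosomal RNA and made into strand-specific libraries, per the labels' protocols. The build GRCm39 and the tools Bowtie2, RSEM 1.3.0, Trimmomatic 0.38 and edgeR are listed, without roles, in the submitters' processing notes. The deposited table holds a normalised signal for 23255 Ensembl genes, and 100% of its values were whole multiples of a library's smallest value within 0.01. The reads so recovered, 5045361 to 13009975 per library, gave edgeR TMM factors equal to those implied by the deposited signal. No pair of replicates agreed within sampling noise, the smallest chi-square per degree of freedom being 3.67. Gene names and median transcript lengths came from GENCODE M21 on the earlier build GRCm38, which left 132 IDs without a name.

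Genes with a mean of at least 1 over the 11 libraries (16225) entered limma 3.58.1 (R 4.3.3) on the log2(value + 1) scale, using a mean-variance trend and a single fit of all 3 groups with 8 residual degrees of freedom. P-values were adjusted by Benjamini and Hochberg's method across these genes, with a threshold of 0.05. edgeR 4.0.16 (quasi-likelihood) and DESeq2 1.42.0 were run on the recovered reads, where edgeR called 0, 0 and 1 and DESeq2 21, 11 and 75 genes in osimertinib against naphthalene, naphthalene against control and osimertinib against control. In these comparisons 712, 11369 and 83 genes had no adjusted p from DESeq2. Tested on simulated data, the limma step called 67, 62 and 72% of genes changed 2-fold and 94, 99 and 98% of genes changed 4-fold, with 21, 14 and 5 false calls among 16056, 16043 and 16048 genes. The changed genes were drawn from those averaging above 5 CPM. Genes were simulated independently around a common mean profile, with no library set apart as osimertinib 3 was. These rates may therefore not hold for the members in these libraries.

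Same-numbered libraries were taken to pair osimertinib with naphthalene lungs, since all 3 correlations of their deviations from the group means exceeded 0.1 (0.122, 0.159 and 0.523). That pairing comes from the values alone, and only number 3 matched its own number best. The block was nevertheless fitted over all 3 groups. Pairs with control lungs did not all exceed 0.1, at -0.064, 0.203 and -0.093 for naphthalene and -0.038, 0.075 and -0.152 for osimertinib lungs. The labels give no ground for the block in comparisons with control lungs. Osimertinib 4 and 5 had no partner and did not enter the differences of the replicate block fit.

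The 8 genes and the 16 other lists were chosen with earlier results of these data known. Beside the 8, up to 3 genes of each list with the smallest unadjusted p in osimertinib against naphthalene, 14 fixed anchor genes and the 2 genes most like each member could be named. The alternatives changed the pseudocount to 0.1 or 5, dropped the filter or set it at 5, rescaled the libraries, fitted only the groups compared, used array weights, added the replicate block, left out each library singly or left out osimertinib 2 and 3. A term for the high read share and osimertinib 2 alone were added after seeing the data. Some genes that this rule picks are not reported here.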

Additional observations from a re-analysis of the deposited data

Results flagged for a closer look

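In the 5 osimertinib lungs, 9 of the 60 groups looked at (members and named genes) had a library far from the other 4, by a gap that chance gives in about 1 in 20 groups. Bach2 was the only member among them, at 19.0 CPM in osimertinib 3 against 21.4 to 22.4 CPM in the rest. Osimertinib 3 was also the low library for Foxo1, at 34.6 CPM against 58.0 to 61.9 CPM, and for the endothelial gene Pecam1, at 276 CPM against 346 to 368 CPM. It was the high library for the CCR7 ligand Ccl21a, at 114 CPM against 36.0 to 46.3 CPM. The cytokine gene Tslp read 4.81 CPM there against 1.2 to 2 CPM, and Areg 12.5 CPM against 2.99 to 4.60 CPM. Ccl17 read 11.5 CPM in osimertinib 3 against 2.12 to 4.80 CPM, and the surfactant gene Sftpa1 3643 CPM against 1988 to 2284 CPM. Il2ra stood out in osimertinib 2 instead, at 3.71 CPM against 1.51 to 1.66 CPM. The cause of these gaps was not tested.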

How the results depend on the processing

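None of the 8 genes was called in any comparison under any alternative except equal totals and array weights. Equal totals called 3 in osimertinib against naphthalene, 8 in naphthalene against control and 1 in osimertinib against control, where 14420, 15763 and 96 of the 16549 genes tested at that scale were called. Array weights called 2 in osimertinib against control, where 149 of 16225 genes were called. The cause of these calls was not tested, apart from the shift of the median gene that equal totals bring, to 1.10, -1.45 and -0.34 in the 3 comparisons.

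In osimertinib against naphthalene, equal totals turned Ccr7 to 0.57, Lef1 to 0.43, Tcf7 to 0.68, Satb1 to 0.36, Il7r to 0.56 and Bach2 to 0.96, and equal totals without genes over 10% turned Bach2 to 0.12. The replicate block, in which osimertinib 4 and 5 did not enter the difference, turned S1pr1 to -0.024. It changed no other sign and no call of a member. The term for the high read share and osimertinib 2 alone turned Klf2 to -0.23 and S1pr1 to -0.13. These fits must give the same difference, since osimertinib 2 is the single osimertinib library with that share, so they count as a single check. S1pr1 ran from -0.070 to 0.19 as each library was left out.

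In naphthalene against control, equal totals turned Lef1 to -1.16 and Il7r to -0.90, and equal totals without genes over 10% turned Lef1 to -0.13. Ccr7 turned to 0.032 with median-ratio rescaling, 0.030 with edgeR and 0.029 with DESeq2. The term for the high read share turned Klf2 to 0.34 and S1pr1 to 0.15. As each library was left out, Ccr7 ran from -0.14 to 0.15, S1pr1 from -0.22 to 0.039 and Tcf7 from -0.29 to 0.010.

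In osimertinib against control, Il7r, Klf2 and S1pr1 lay close to 0 and changed sign often. Il7r was 0.012 with median-ratio rescaling, 0.064 with array weights, 0.13 without osimertinib 2 and 3, 0.021 with edgeR, 0.029 with DESeq2 and 0.023 with the term for the read share. Klf2 was 0.040 with edgeR, 0.037 with DESeq2 and 0.11 with that term. S1pr1 was 0.11 without osimertinib 2 and 3, 0.00097 with edgeR, 0.0042 with DESeq2 and 0.019 with that term. As each library was left out, Il7r ran from -0.083 to 0.11, Klf2 from -0.32 to 0.12 and S1pr1 from -0.15 to 0.039.

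Genes called over the whole table moved more. In osimertinib against naphthalene (0 as reported) there were, beside equal totals, 367 at equal totals without genes over 10%, 1 with only these groups, 4 with array weights, 47 without osimertinib 2 and 3, 21 with DESeq2, 2 with the share term, 1 with osimertinib 2 alone and 0 to 11 as each library was left out. In naphthalene against control (0 as reported) there were 533, 21, 5, 38, 11 and 2 in the same order without osimertinib 2 alone, and 0 to 12 as each library was left out. In osimertinib against control (1 as reported) there were, beside equal totals and array weights, 0 at equal totals without genes over 10%, 0 with the replicate block, 2 without osimertinib 2 and 3, 75 with DESeq2, 2 with the share term and 0 to 2 as each library was left out. Depth limits the naphthalene values most, since Ccr7, Lef1, Tcf7 and Il7r rested on 27 to 64 reads in each of those libraries.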
